A study of Saccharomyces cerevisiae with 8 samples.

Results

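The 53 genes described here encode the small subunit (SSU) processome and the factors that assemble the 40S ribosomal subunit of budding yeast. They were chosen by name, as the protein components of the U3 particle and its UTP complexes, the core proteins of box C/D and H/ACA small nucleolar RNPs, and other 40S assembly factors. All 53 names were found among the 6569 genes of the deposited table. All 53 passed the filter on low values described below, so no member was lost.

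The SSU processome, also called the 90S pre-ribosome, forms in the nucleolus on the nascent ribosomal RNA precursor. Around the U3 small nucleolar RNA it gathers the UTP-A, UTP-B, UTP-C and Mpp10 complexes and a set of enzymes. There the 18S rRNA folds, is modified and is cut free. Box C/D particles guide ribose methylation and H/ACA particles guide pseudouridylation, and some of each kind are needed for cleavage itself. Growing yeast transcribes the genes for these proteins together as part of the ribosome biogenesis regulon, which the TORC1 kinase controls.

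Transcripts were measured by strand-specific sequencing of poly(A) RNA. The wild type was BY4741, a MATa strain with deletions of HIS3 (his3-delta-0), of LEU2 (leu2-delta-0), of MET15, also named MET17 (met15-delta-0), and of URA3 (ura3-delta-0). Its cultures grew at 30 °C in the rich medium YPD (OD 0.5). They formed 3 groups of 2 biological replicates, 1 without treatment and the others exposed for 10 or 60 min to rapamycin, an inhibitor of TORC1, at 200 ng/mL. The remaining 2 libraries came from strains with the prp4-1 mutation in a spliceosomal protein, both grown in YPD at 26 °C. The first was a MATalpha prp4-1 strain with an ade2 allele, the double leu2 mutation leu2-3 leu2-112, ura3-52 and his3-delta-200, and the second was labelled k-HIS3:pGAL1-IFH1, prp4-1. In the second, IFH1, an activator of ribosomal protein genes, was placed under the GAL1 promoter and labelled as lowered by about 50%. The prp4-1 strains had 1 library each and no replicate, and neither received rapamycin.

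Values are scaled signal per gene, the authors' own summary of mapped reads. Summed over genes, it came to 3206357 and 3306674 in the untreated libraries, 2753329 and 2855900 at 10 min and 2025663 and 2037245 at 60 min of rapamycin, and the prp4-1 strains had 3319861 and 3065499. Read depth is unknown. Markers of mating type followed the labels of BY4741 and the first prp4-1 strain, and the label quoted for the second prp4-1 strain names none. The a-cell receptor gene STE2 lay between 720 and 1058 in the wild-type libraries and at 22.5 and 28.7 in the prp4-1 strains. The alpha-cell gene STE3 lay between 8.34 and 14.6 in wild type and at 1008 and 1629 in the prp4-1 strains. The signals of LEU2, MET17 and URA3 reached at most 1.84 in any BY4741 library. Between the libraries of a wild-type group, members differed by a median of 0.0773 in the untreated, 0.119 in the 10 min and 0.118 in the 60 min libraries, as absolute differences on the log2 scale.

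In untreated cells the signal of the members spanned a 43.4-fold range. It was highest for NOP1, the yeast fibrillarin, and lowest for UTP20, a very long repeat protein of the processome. The 8 members with the highest means were the proteins shared by all box C/D particles (NOP1, NOP56, NOP58 and SNU13) and by all H/ACA particles (CBF5, GAR1, NHP2 and NOP10). The next highest mean was that of KRR1, at 697 ± 9.05 (SD, n = 2). RRP9, which binds U3 and no other box C/D RNA, stood at 287 ± 7.09. The subunits of the UTP-B complex had much the same signal, with means between 200.5 and 251.8. Whether the authors divided signal by gene length is not stated. Across 6096 genes with a signal of at least 1 in untreated cells, signal and gene length had a Spearman rho of -0.08. Per kb of gene the order changed in part, with 7 of the 9 highest members as deposited also among the 9 highest per kb. NOP10, only 177 bases long, came first on that scale at 12990 per kb. If the deposited signal was already per length, this scale divides by length again and favours short genes.

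**Figure D1:**
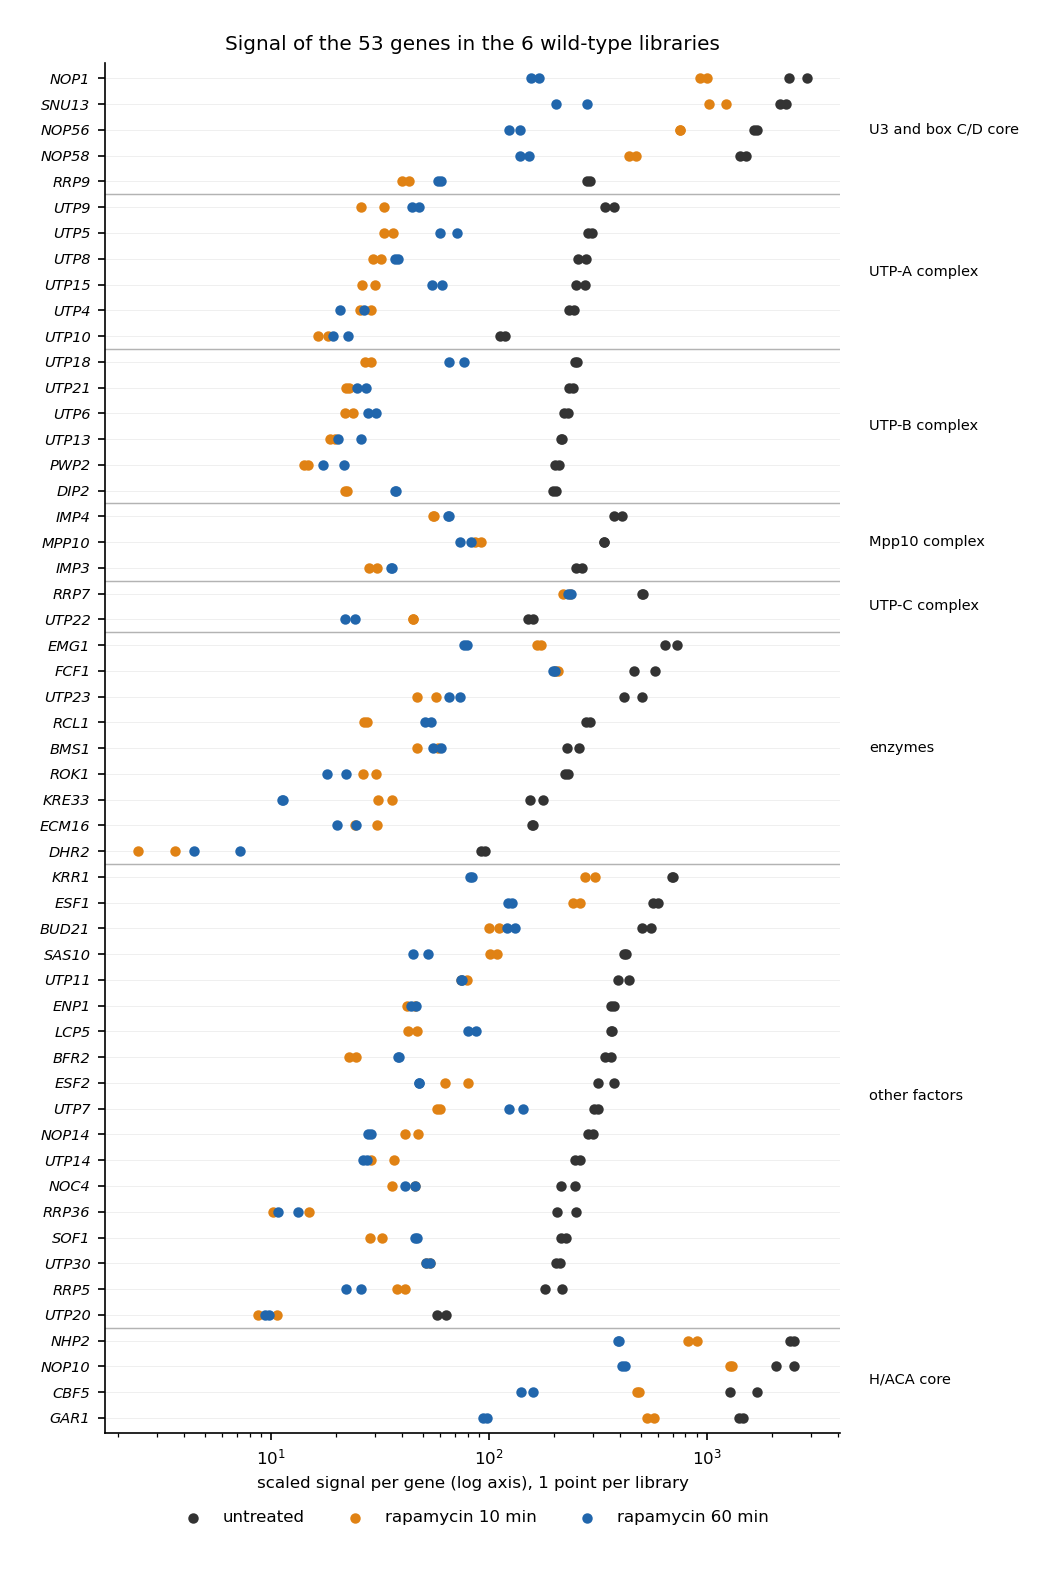
Scaled signal of each of the 53 genes (log axis) in the 6 wild-type libraries, with 1 point per library, coloured by treatment and grouped by role. The black points of untreated cells lie to the right of all rapamycin points in every row, and the blue 60 min points fall on either side of the orange 10 min points.

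The comparison of 10 min with untreated cells covers the earliest time sampled under rapamycin. All 53 members fell within 10 min (limma adjusted p under 0.05), where 30.2% of the 6127 genes tested were lower and 26.8% higher. The median log2 change was -2.53, against -0.02 for all genes tested, and the members ran from -4.57 to -0.82. Here and in the comparisons below, the deposited scaling holds the median of all genes near no change. Member changes are therefore relative to the typical gene. A fall of at least 2-fold was seen for 51 members, against 8.42% of all genes, and a log2 change of -3 or lower for 19, against 1.03% of all genes. In all 53 the 10 min libraries lay below both untreated libraries, as for 40% of the genes tested. Lower signal can come from fewer transcripts in every cell or from fewer cells that hold them, and a culture sample cannot tell these apart.

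The members with the largest falls at 10 min were DHR2, RRP36 and BFR2. DHR2 (YKL078W, chromosome XI, 288845 to 291052), a DEAH-box RNA helicase, read 92.4 and 96.2 in untreated cells, 2.47 and 3.65 at 10 min, and 7.22 and 4.43 at 60 min. Its log2 change was -4.57 at 10 min (SE 0.223, limma adjusted p = 1.75e-06). RRP36 (YOR287C, chromosome XV, 850937 to 851839), needed for early cleavages of the rRNA precursor, read 250.4 and 205 untreated, 10.2 and 14.9 at 10 min, and 13.3 and 10.8 at 60 min. Its change at 10 min was -4.09 (SE 0.186, limma adjusted p = 1.19e-06), and its 10 min and 60 min values overlapped. BFR2 (YDR299W, chromosome IV, 1059627 to 1061231), a partner of LCP5 in the processome, read 365 and 341 untreated, 23.0 and 24.7 at 10 min, and 38.7 and 38.5 at 60 min. The change at 10 min was -3.83 (SE 0.0762, limma adjusted p = 5.73e-08).

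The members with the smallest falls at 10 min were NOP10, SNU13 and NOP56, all shared core proteins of small nucleolar RNPs. NOP10 (YHR072W-A, chromosome VIII, 241664 to 241840) read 2513 and 2084 untreated, 1307 and 1284 at 10 min, and 424 and 408 at 60 min. The change at 10 min was -0.82 (SE 0.0970, limma adjusted p = 0.000245). SNU13 (YEL026W, chromosome V, 101943 to 102323), which also binds U4 RNA in the spliceosome, read 2165 and 2309 untreated, 1226 and 1029 at 10 min, and 282 and 204 at 60 min. Its change at 10 min was -0.99 (SE 0.154, limma adjusted p = 0.00104). NOP56 (YLR197W, chromosome XII, 546097 to 547611), a scaffold of box C/D particles, read 1701 and 1657 untreated, 754 and 751 at 10 min, and 139.8 and 124 at 60 min, a change of -1.16 at 10 min (SE 0.0774, limma adjusted p = 9.77e-06). In each of these genes the 3 groups of libraries did not overlap, and the 60 min libraries were the lowest.

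By role, the deepest early falls lay in the UTP-B and UTP-A complexes, the proteins that bind the leader of the rRNA precursor first. All 6 UTP-B genes were at -3 or lower at 10 min, with a median of -3.30 and a range from -3.74 for PWP2 to -3.12. Of the 6 UTP-A genes, 5 were at -3 or lower, with a median of -3.08, and UTP10, the exception, was at -2.68. The 3 genes of the Mpp10 complex, which contacts U3, had a median of -2.79. The 9 enzymes had a median of -2.49 and the 18 other factors one of -2.45. The 4 H/ACA genes, at a median of -1.44, and the 5 genes of the U3 and box C/D group, at -1.43, fell least, and within the latter RRP9, at -2.76, lay apart from the 4 shared proteins, which ran from -1.69 to -0.99. The UTP-C genes UTP22 and RRP7 were at -1.77 and -1.16.

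After 60 min all 53 members were still below untreated cells (limma adjusted p under 0.05), where 38.5% of the genes tested were lower and 38.6% higher. The median log2 change was -2.79, against 0.00 for all genes tested, with a range from -4.13 to -1.11. All 53 were at least 2-fold lower, as were 17.2% of the genes tested, and 21 were at -3 or lower, against 4.02% of the genes tested. The 3 largest falls were those of RRP36 (-4.13, SE 0.186, limma adjusted p = 4.01e-07), NOP1 (-3.99, SE 0.103, limma adjusted p = 2.22e-08) and GAR1 (-3.89, SE 0.0709, limma adjusted p = 6.52e-09). The 3 smallest were those of RRP7, at -1.11, UTP7, at -1.21, and FCF1, a PIN-domain protein, at -1.38. UTP7 (YER082C, chromosome V, 324272 to 325936) read 317 and 304 untreated, 57.6 and 59.7 at 10 min, and 144 and 123 at 60 min, so its lowest libraries were those at 10 min. The highest member signal at 60 min was that of NOP10, with a mean of 416.1, and the lowest that of DHR2, at 5.82.

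**Figure D2:**
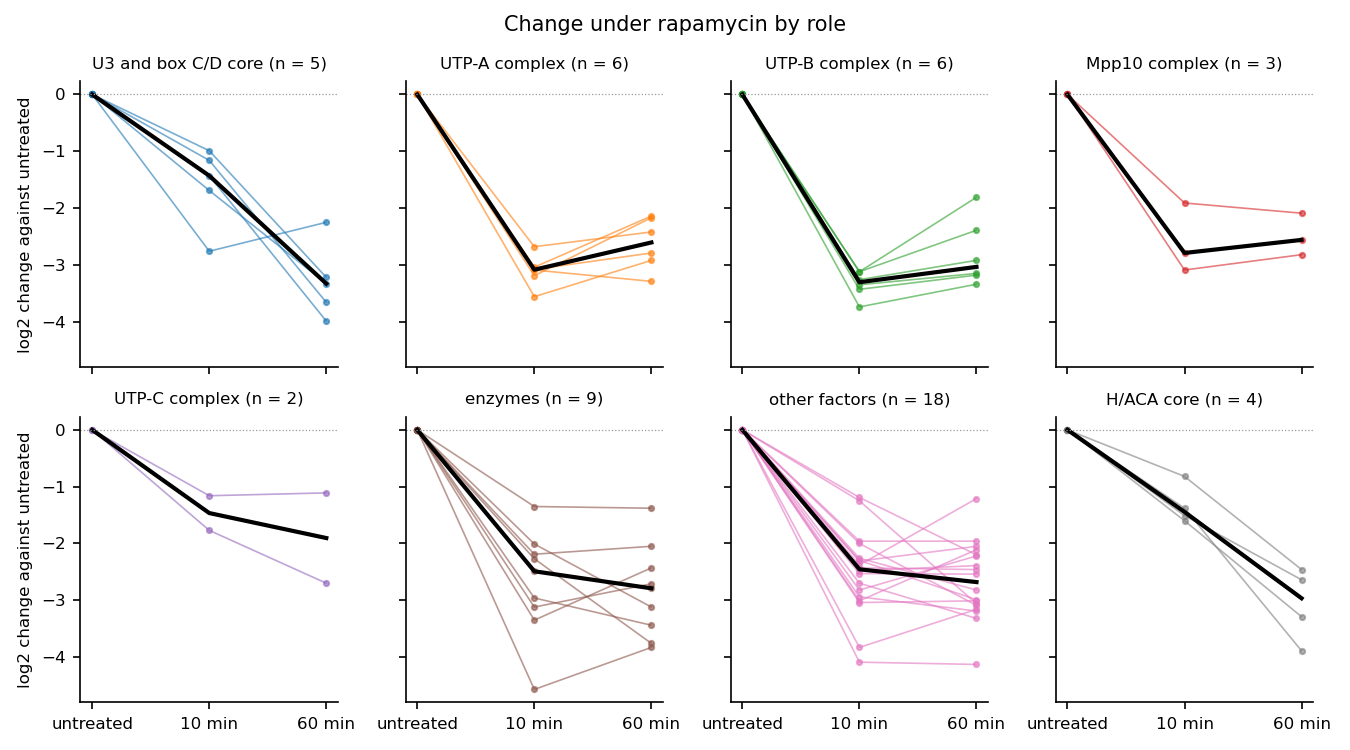
Log2 change against untreated cells at 10 and 60 min of rapamycin for each gene (coloured lines) and the median of its group (black), in 8 groups by role. The UTP-A and UTP-B medians reach -3.08 and -3.30 at 10 min and lie at -2.61 and -3.03 at 60 min, while the H/ACA median goes from -1.44 to -2.96.

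The comparison of 60 with 10 min split the members. At 60 min 18 were lower than at 10 min, 19 were higher and 16 were not called (limma adjusted p), against 33.8% lower and 35.4% higher among all genes tested. These shares were close to the background, so the split as a count is no feature of the members. The median change was 0.00, against 0.02 for all genes. The 60 min libraries lay wholly below the 10 min libraries in 20 members (42.2% of all genes) and wholly above in 22 (44.8%). A later fall of at least 2-fold was called for 13 members, where the share over all genes was 8.96%. These were all 8 shared core proteins of small nucleolar RNPs and 5 of the 45 other members. In the lists compared below, falls of this size were seen in 9 of 56 genes of 60S assembly and 3 of 22 further 90S factors. They were also seen in all 56 genes for 40S ribosomal proteins. Some of these 19 calls did not hold with 1 library left out, a fit with fewer libraries to estimate the spread. The later changes of the genes concerned, named below, stayed above 0 in every such fit, between 0.19 for BUD21 and 1.03 for DHR2. Scaling every library to its total signal gave 14 lower and 31 higher members, against 14.8% and 61.7% of all genes, as it moved the median of all genes to 0.48.

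The genes that went on falling after 10 min were led by the shared small nucleolar RNP proteins. NOP1 (YDL014W, chromosome IV, 427364 to 428347), the methyltransferase of box C/D particles, read 2876 and 2382 untreated, 935 and 1001 at 10 min, and 170.2 and 157 at 60 min. Its change from 10 to 60 min was -2.56 (SE 0.103, limma adjusted p = 4.77e-07). GAR1 (YHR089C, chromosome VIII, 282681 to 283298), an H/ACA protein rich in glycine and arginine, read 1474 and 1410.0 untreated, 533 and 575 at 10 min, and 98.1 and 94.5 at 60 min, a later change of -2.51 (limma adjusted p = 6.68e-08). NOP56, with its libraries given above, changed by -2.51 as well (limma adjusted p = 9.95e-08).

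All 8 shared core proteins were lower at 60 than at 10 min, with changes between -2.56 and -1.13 and a median of -1.96. They were still lower by 2.10 to 0.66 on the log2 scale under total-signal scaling, all 8 called. CBF5 (YLR175W, chromosome XII, 506134 to 507585), the pseudouridine synthase, read 1698 and 1282 untreated, 481 and 492 at 10 min, and 160.5 and 140.0 at 60 min. NHP2 (YDL208W, chromosome IV, 87512 to 87982), the most abundant of the H/ACA transcripts as deposited, read 2514 and 2402 untreated, 821 and 905 at 10 min, and 391 and 396 at 60 min. NOP58 went from a 10 min log2 change of -1.69 to one of -3.33 at 60 min. The 45 other members had a median later change of 0.14, with 10 lower and 19 higher.

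Outside the shared core, KRR1 and KRE33 had the largest later falls. KRR1 (YCL059C, chromosome III, 22429 to 23379), a KH-domain protein of the 90S particle, read 704 and 691 untreated, 277 and 307 at 10 min, and 83.5 and 82.1 at 60 min, a later change of -1.80 (limma adjusted p = 4.66e-07). KRE33, the acetyltransferase of 18S rRNA, changed by -1.48 after 10 min. EMG1 (YLR186W, chromosome XII, 523632 to 524390), which methylates a pseudouridine of 18S rRNA, read 728 and 647 untreated, 166 and 173 at 10 min, and 77.1 and 79.4 at 60 min, a later change of -1.11 (limma adjusted p = 1.00e-05). The remaining later falls were those of SAS10 (-1.10), ESF1 (-1.01), UTP22 (-0.93), the S1-repeat protein RRP5 (-0.69), NOP14 (-0.62), ESF2 (-0.56) and the helicase ROK1 (-0.48). The ROK1 call ended without the 10 min library numbered 25, and the other 17 lower calls were kept whichever library was left out. Under total-signal scaling the calls of RRP5, NOP14, ESF2 and ROK1 were lost, with changes of -0.25, -0.17, -0.10 and -0.04.

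Of the 19 genes that recovered part of their early fall, 8 encode subunits of UTP-A or UTP-B. UTP18 (YJL069C, chromosome X, 310922 to 312706), a UTP-B subunit, read 253 and 250.2 untreated, 28.9 and 27.2 at 10 min, and 77.2 and 65.9 at 60 min, a later change of 1.32 (SE 0.0907, limma adjusted p = 9.02e-06). UTP7 and UTP15, a processome WD-repeat protein and a UTP-A subunit, were higher by 1.17 and 1.02. The next were the cyclase-like protein RCL1 (0.92), LCP5 (0.90), UTP5 (0.90), DIP2 (0.73), DHR2 (0.73) and BFR2 (0.68). UTP9 (YHR196W, chromosome VIII, 491931 to 493658), the UTP-A gene of highest signal, read 342 and 374 untreated, 33.2 and 26.0 at 10 min, and 48.0 and 44.7 at 60 min, a later change of 0.64 (limma adjusted p = 0.00189). No member regained its untreated level: in all 53 the 60 min libraries lay below both untreated libraries, as for 44.2% of the genes tested.

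The smallest later rises that passed the test were those of IMP4, BUD21 and IMP3. IMP4 (YNL075W, chromosome XIV, 485607 to 486479), of the Mpp10 complex, read 408 and 378 untreated, 56.4 and 55.5 at 10 min, and 65.8 and 65.4 at 60 min, a later change of 0.23 (limma adjusted p = 0.0208). BUD21, also called UTP16, read 504 and 553 untreated, 100.5 and 111 at 10 min, and 132 and 121 at 60 min, a change of 0.26. IMP3 read 251 and 269 untreated, 28.4 and 30.9 at 10 min, and 36.1 and 35.5 at 60 min, a change of 0.27. Of the 19 later rises, 11 kept their call whichever library was left out, and those of IMP3, IMP4, BUD21, UTP8, PWP2, UTP6, UTP23 and DHR2 did not. All 8 ended without library 22 and without library 23, IMP4 also without library 25, and UTP8, IMP3 and IMP4 also without the 60 min library numbered 26.

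For 16 members the 60 min level was not called different from the 10 min level, although UTP4, UTP10, UTP13, ECM16 and UTP14 gained a call in fits that left out library 22, 23 or 26. RRP7 (YCL031C, chromosome III, 64675 to 65568), a UTP-C subunit, read 507 and 510.0 untreated, 219 and 235 at 10 min, and 232 and 239 at 60 min, and the 95% interval of its later change ran from -0.10 to 0.21. FCF1 (YDR339C, chromosome IV, 1149951 to 1150520) read 581 and 466 untreated, 207 and 201 at 10 min, and 202 and 197 at 60 min, with an interval from -0.27 to 0.21. UTP30, a protein of the ribosomal L1 family, read 212 and 204 untreated, 51.3 and 53.9 at 10 min, and 53.9 and 51.3 at 60 min, with an interval from -0.17 to 0.17. In these 3 genes, under the deposited scaling, a later change beyond 0.27 in size lies outside the interval, and their changes at 10 min were between -1.96 and -1.16. Under total-signal scaling all 3 were called higher at 60 min, RRP7 by 0.52, FCF1 by 0.43 and UTP30 by 0.46.

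Among the UTP complexes the uncalled members were UTP4, UTP10, UTP13 and UTP21. UTP4 read 233 and 246 untreated, 25.6 and 28.9 at 10 min, and 26.7 and 20.8 at 60 min. UTP10 read 119 and 113 untreated, 16.5 and 18.2 at 10 min, and 22.7 and 19.3 at 60 min. UTP13 read 215.5 and 216.2 untreated, 18.7 and 19.6 at 10 min, and 25.9 and 20.3 at 60 min. The later changes of these 3 subunits were -0.20 (95% interval -0.49 to 0.09), 0.26 (0.01 to 0.50) and 0.25 (-0.02 to 0.52), small beside their early falls, and the 10 min and 60 min libraries overlapped in UTP4 alone among them. UTP21 read 244 and 233 untreated, 22.8 and 22.2 at 10 min, and 27.35 and 24.8 at 60 min, a later change of 0.20 (95% interval 0.01 to 0.39). The intervals of UTP10 and UTP21 lay above 0, and these genes missed only the threshold on the adjusted p (limma adjusted p = 0.0621 and 0.0598). MPP10, the scaffold of its complex, read 336 and 338 untreated, 86.1 and 91.7 at 10 min, and 83.1 and 74.2 at 60 min, a change of -0.18.

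The other uncalled members were enzymes and further assembly factors. ECM16, the helicase that unwinds U3 from the precursor, read 160 and 157 untreated, 24.3 and 30.8 at 10 min, and 24.5 and 20.03 at 60 min. Its activator UTP14 read 262 and 249 untreated, 28.7 and 36.6 at 10 min, and 27.5 and 26.6 at 60 min. The GTPase BMS1 read 259 and 229 untreated, 46.8 and 58.7 at 10 min, and 60.3 and 55.5 at 60 min. The later changes of these 3 were -0.29, -0.25 and 0.14, within intervals that reached 0. UTP11 read 443 and 394 untreated, 74.4 and 79.3 at 10 min, and 74.8 and 75.4 at 60 min. UTP20, the gene of lowest untreated signal, read 63.4 and 57.7, then 8.75 and 10.6, then 9.40 and 9.82. NOC4, which pairs with NOP14, read 250 and 214 untreated, 36.1 and 45.8 at 10 min, and 45.7 and 41.4 at 60 min. ENP1, which also accompanies later 40S precursors, read 364 and 378 untreated, 42.3 and 46.1 at 10 min, and 46.4 and 43.9 at 60 min. Of NOC4, UTP11, UTP20 and ENP1 the later changes lay between -0.03 and 0.10, with intervals reaching from -0.30 to 0.40. Under total-signal scaling MPP10, FCF1, UTP11, UTP20 and UTP30, all at or below 0.00 here, were called higher at 60 min, by 0.28 to 0.46, and 7 other uncalled members were also called higher.

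**Figure D3:**
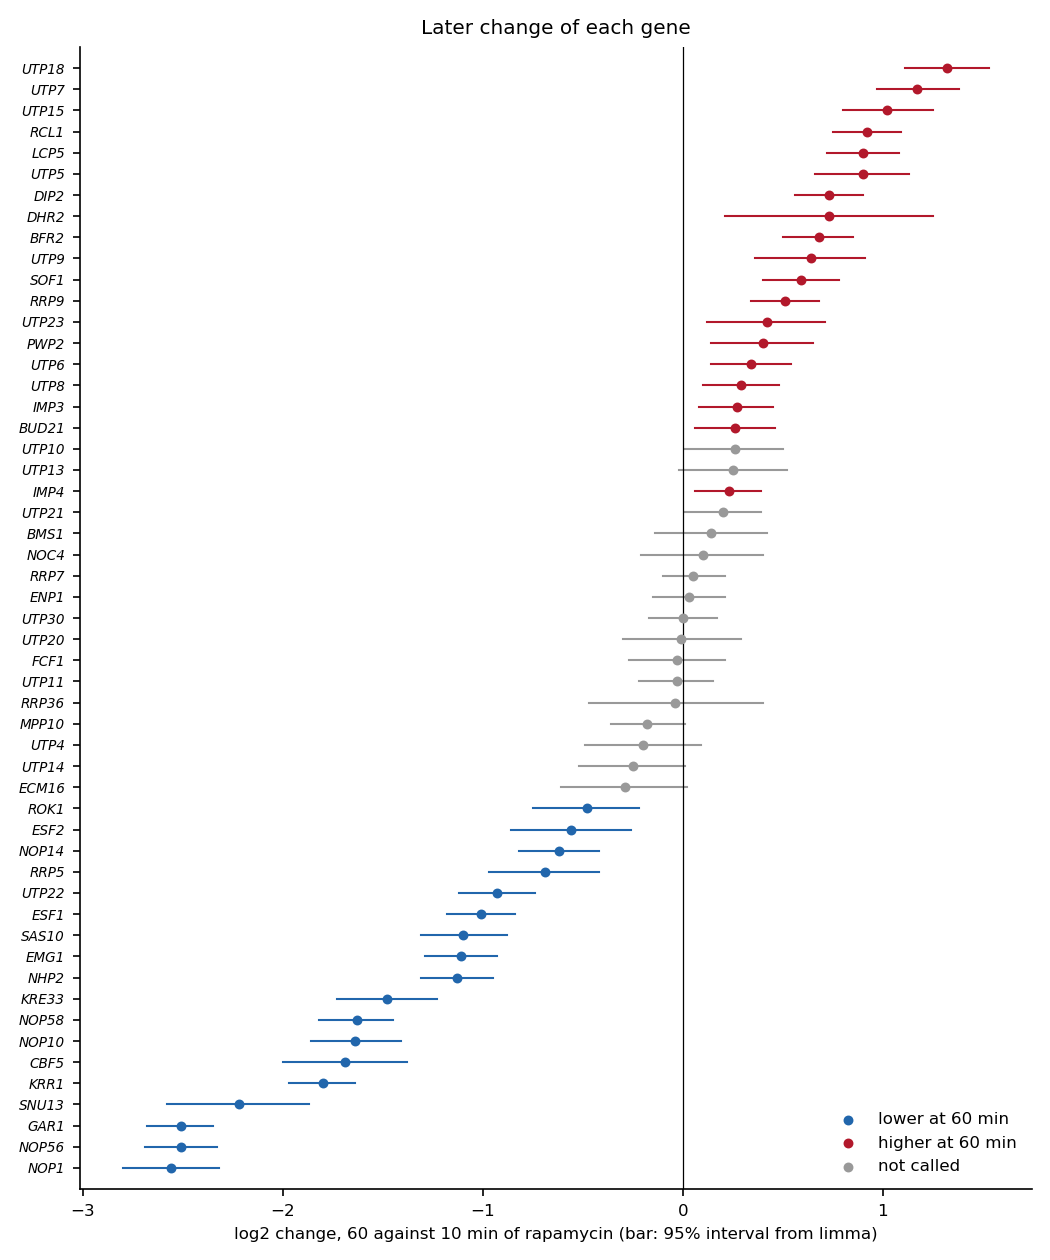
Log2 change from 10 to 60 min of rapamycin for each of the 53 genes, with the 95% interval from limma as a bar, coloured by call. The values run from -2.56 for NOP1 to 1.32 for UTP18, with 18 genes lower, 19 higher and 16 not called.

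Members with a higher signal fell less at 10 min. With the level taken from the prp4-1 library, which enters no rapamycin comparison, signal and the 10 min log2 change had a Spearman rho of 0.60 over the 53 members, and of -0.21 over all genes tested. Against the change at 60 min from untreated cells rho was -0.05 over the members and -0.32 over all genes. Against the change from 10 to 60 min it was -0.48 over the members and -0.30 over all genes. The members share these libraries, and signal also moved with gene length (rho -0.69 over the 53), so the part of length was not tested; length itself had a rho of -0.31 with the 10 min change. The values are a description over 53 genes of 1 list.

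Other factors of 40S assembly were also mostly lower under rapamycin. Their median falls at 10 min were smaller than that of the members, -2.53, though only slightly for the further 90S factors. That list includes the genes of casein kinase 2, which changed little. Of 22 further 90S factors, 20 were lower and 0 higher at 10 min, with a median of -2.40, and 20 and 0 at 60 min, with a median of -2.46. The 2 genes not called at 10 min, CKB1 at -0.01 and CKB2 at -0.02, encode regulatory subunits of casein kinase 2, which joins UTP22 and RRP7 in UTP-C, and the catalytic subunit genes CKA1 and CKA2 fell by only 0.34 and 0.31. Of 12 late 40S maturation factors, 11 were lower and 0 higher at 10 min (median -1.92). SQS1, a cofactor of the helicase PRP43, was the gene not called, at 0.11, and HRR25, a casein kinase with other targets, fell by 0.25. Of 9 factors that assemble small nucleolar RNPs, 8 were lower at 10 min (median -1.29) and 7 lower and 1 higher at 60 min. PIH1 was the gene not called at 10 min, at -0.07, and TAH1 the gene higher at 60 min, at 0.21. Both encode partners in the R2TP complex, which helps assemble box C/D particles. PIH1 was lower at 60 min, at -0.25, and TAH1 at 10 min, at -0.3. On the same list RVB1 and RVB2 were lower at both times, at -0.72 and -0.38 at 10 min and -1.49 and -1.27 at 60 min. NAF1, the H/ACA assembly factor, fell by 2.60 at 10 min and then rose by 2.76, so that at 60 min its log2 change against untreated cells was 0.16 and not called, whereas the H/ACA core genes it serves were at -3.89 to -2.46.

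The 60S assembly factors and the 40S ribosomal proteins give the frame for these values. All 56 genes of 60S assembly were lower at both times, with medians of -2.51 and -2.78, close to the medians of the members. Of 56 genes for 40S ribosomal proteins, 45 were lower at 10 min with a median of only -0.52, and all 56 were lower at 60 min with a median of -4.33. From 10 to 60 min all 56 ribosomal protein genes were lower, by a median of 3.90 on the log2 scale, against 18 of the 53 processome and assembly genes. Both times share the untreated libraries, so the values stand side by side without a further test.

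The remaining comparison, of the prp4-1 strains, shows the members where IFH1 is lowered. IFH1 itself read 154 in the prp4-1 library and 86.1 in the prp4-1 pGAL-IFH1 library. All 53 members had a higher signal in the strain with lowered IFH1, as had 50.1% of 6222 genes, and 52 were higher by 1.5-fold or more, as were 18.2% of all genes. The median log2 ratio was 1.16, against 0.00 for all genes, and 41 members were at least 2-fold higher, against 8.5% of all genes. With 1 library of each strain no test was possible, and the ratios have no replicate check.

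The highest ratios were those of DHR2, UTP11 and UTP23. DHR2 read 58.3 in the prp4-1 library and 269 in the prp4-1 pGAL-IFH1 library, a ratio of 4.55. UTP11 read 330.2 and 1145, a ratio of 3.46, and UTP23, a PIN-domain protein of the processome, read 346 and 1068, a ratio of 3.08. The lowest were those of UTP22 (162 and 214, ratio 1.32), FCF1 (617 and 971, ratio 1.57) and SNU13 (2113 and 3374, ratio 1.60). DHR2 thus had both the deepest fall at 10 min of rapamycin and the highest ratio here, and the 40S ribosomal protein genes had a median log2 ratio of -0.50, with 21 of 56 lower and 3 higher by 1.5-fold. Group medians ran from 0.64 for UTP-C and 0.91 for the U3 and box C/D genes to 1.47 for the Mpp10 complex. For comparison the 56 genes of 60S assembly had a median of 1.34, all 56 higher by 1.5-fold.

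The prp4-1 strains differed in more than IFH1. MET17 read 1495 in the prp4-1 library and 0 in the prp4-1 pGAL-IFH1 library, URA3 read 111 and 0, and LEU2 read 1386 and 622. Lowered IFH1 and other differences between the strains therefore cannot be told apart in these ratios.

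**Figure D4:**
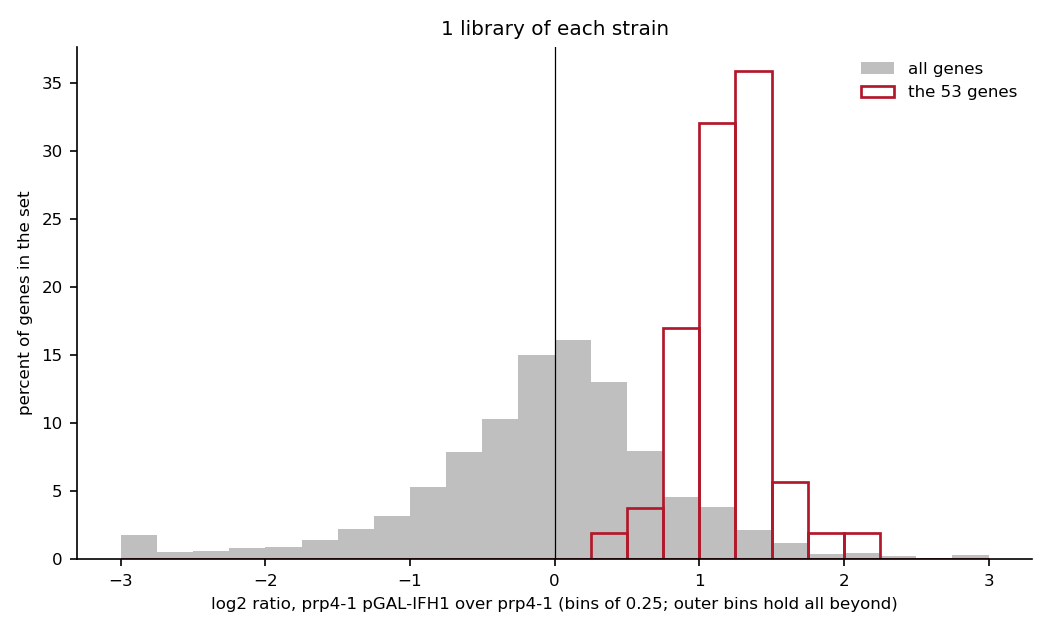
Percent of genes by log2 ratio of prp4-1 pGAL-IFH1 over prp4-1 signal in bins of 0.25, for all 6222 genes (grey) and the 53 processome and assembly genes (red outline), from 1 library of each strain. The 53 genes lie between 0.40 and 2.19, to the right of the bulk of all genes, which is centred on 0.00.

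The promoters of the members were read because these genes fell together at both times of rapamycin. The regulon is known for a pair of sequence elements, PAC, which the repressors Tod6 and Dot6 bind, and RRPE, which Stb3 binds. The PAC core GATGAG and the RRPE core AAAAATTTT were searched on both strands from 250 bases before to 50 after the start codon. GATGAG was found in 47 of 53 member windows (88.7%) against 20.4% of 6001 protein-coding genes of the genome. AAAAATTTT was found in 33 (62.3%) against 6.98%, and both in 30 (56.6%) against 3.58%. Read backwards, as a control of equal composition, GAGTAG was found in 2 member windows (3.8%) against 8.95% of all windows, and TTTTAAAAA in 2 (3.8%) against 1.8%. Overlapping matches were counted separately, and a match is a run of letters, not a shown binding site.

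The stretches around the cores are shown for the 3 members with the largest early falls and the 3 with the largest falls after 10 min, followed by UTP22, 1 of the 3 members with neither core. Each is written 5′ to 3′ on the strand of its gene, from the sacCer3 (R64) genome as held by RefSeq, with PAC and RRPE cores of either strand in capitals.
DHR2 (chrXI:288749-288804, plus strand): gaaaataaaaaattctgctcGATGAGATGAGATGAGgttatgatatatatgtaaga
RRP36 (chrXV:851928-851973, minus strand): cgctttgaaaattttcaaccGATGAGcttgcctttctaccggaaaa
BFR2 (chrIV:1059481-1059548, plus strand): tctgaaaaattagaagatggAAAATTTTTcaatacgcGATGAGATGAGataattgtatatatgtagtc
NOP1 (chrIV:427118-427185, plus strand): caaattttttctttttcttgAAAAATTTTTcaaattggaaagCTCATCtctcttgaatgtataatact
NOP56 (chrXII:545950-546014, plus strand): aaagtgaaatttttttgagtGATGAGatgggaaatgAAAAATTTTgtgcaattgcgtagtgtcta
GAR1 (chrVIII:283398-283456, minus strand): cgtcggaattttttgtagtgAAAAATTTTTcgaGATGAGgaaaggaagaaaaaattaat
UTP22 (chrVII:662158-662257, plus strand): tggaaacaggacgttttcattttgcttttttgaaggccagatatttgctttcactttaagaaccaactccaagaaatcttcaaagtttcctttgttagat
DHR2 carries 3 overlapping PAC cores and no RRPE core, and BFR2 carries 2 overlapping PAC cores beside an RRPE core. The promoters of NOP1, NOP56 and GAR1, which on the log2 scale had most of their fall after 10 min, hold the same pair of cores as BFR2, which was lowest at 10 min.

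Where both cores lay before the start codon they were close together. In 29 members with both there, the nearest PAC and RRPE centres were a median of 17 bases apart, at most 50 in all 29, and the RRPE core was the farther from the start codon in 23. The centres of PAC matches had a median distance of 106 bases from the start codon and those of RRPE matches one of 130. In UTP4 and ESF2 the only PAC matches lay after the start codon, within the coding sequence, which leaves 45 members with a PAC core upstream.

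The 6 members without a PAC core were UTP15, UTP22, RRP7, EMG1, FCF1 and UTP30. Their median log2 change at 10 min was -1.87, with a range from -3.19 to -1.16, against -2.70 and a range from -4.57 to -0.82 for the 47 with a core. The ranges overlapped: UTP15, without a PAC core but with RRPE, fell by 3.19, and NOP10, with a PAC core, fell by 0.82. Members with both cores and members with PAC alone had similar medians at 10 min, at -2.69 and -2.76, and medians of -3.08 and -2.46 at 60 min. In the prp4-1 pair the median log2 ratio was 1.22 with a PAC core and 1.01 without. Among 131 tested genes that are on none of the lists used here and hold both cores, 84.7% were lower at 10 min, with a median of -1.02. Of all genes tested 30.2% were lower, with a median of -0.02. The lists do not cover the whole regulon, so other genes of it may be among the 131. The 60S assembly factors held PAC in 51 of 56 windows and the 40S ribosomal protein genes in 7 of 56.

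**Figure D5:**
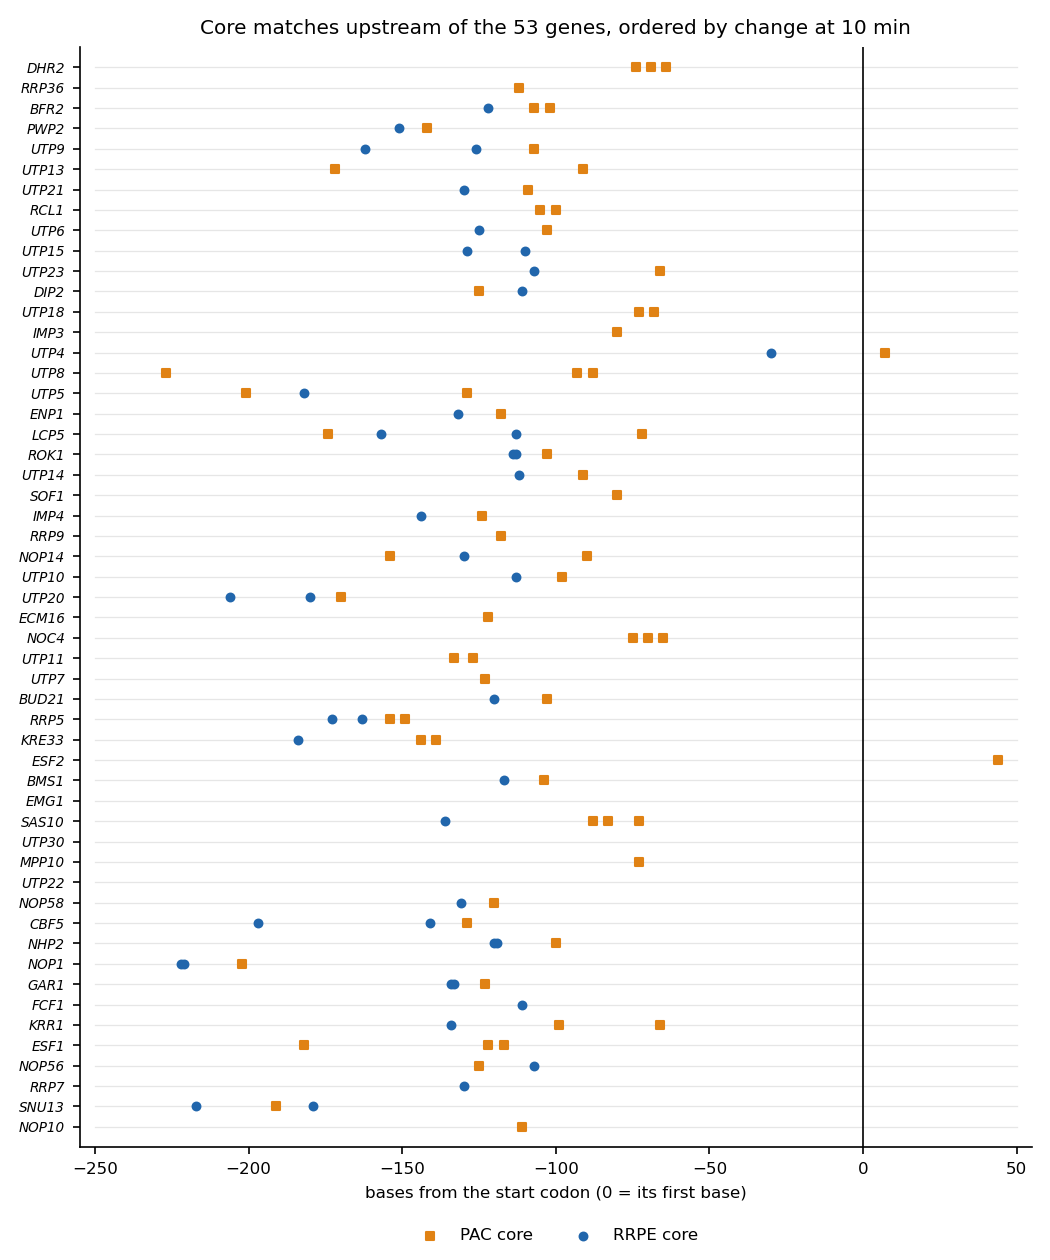
Position of each PAC core (orange squares) and RRPE core (blue circles) in bases from the start codon for the 53 genes, ordered from the largest fall at 10 min at the top to the smallest at the bottom. Most matches lie between 200 and 50 bases before the start codon, and EMG1, UTP30 and UTP22 have none.

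The members are scattered over the genome and none of the 52 found in the deposited gene models has an intron, where 265 of the 6439 genes found there have more than 1 exon. No member lies next to another member on its chromosome. In 6 cases a member neighbours a gene of the 60S assembly list, all of whose genes fell at 10 min, so only the sizes of the falls can differ within a pair. LCP5 and NSA2, divergent across 301 bases, were at -3.01 and -2.67, and UTP9 and RIX1, in tandem, at -3.56 and -3.53. ESF2 and its tandem neighbour NOG2 differed, at -2.26 and -4.64, as did UTP13 and RSA3, at -3.43 and -1.37. NOP56, RRP9 and SAS10 are overlapped on the other strand by reading frames whose own signal was at most 0.248 in untreated cells.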

How the data were processed

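Poly(A) RNA of 8 libraries was sequenced strand-specifically. The submitters' processing notes name TopHat, Bowtie and the sacCer3 genome, with no versions given in the sources used here. The authors deposited a table of signal per gene in which each library had been scaled. How reads were summarised and scaled is not stated. Median-of-ratios factors, which set the typical ratio of genes between libraries to 1, were computed on the scaled values. They lay within 0.534% of 1 in wild type and within 0.191% in the prp4-1 pair. Start and end coordinates came from this table and from the deposited exon coordinates, on sacCer3 per the submitters' processing notes; promoters came from RefSeq R64, the same assembly, to which 5871 names matched, 98.1% with the same coordinates. The 8 columns of scaled signal were used, and 11 others (8 unscaled, 3 averages) were not. Columns name the group and a library number, but no replicate number.

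For wild type, log2(signal + 1) was fitted over all 6 libraries with limma 3.58.1 (R 4.3.3, intensity trend) for the 6127 genes whose mean signal reached 1, so fold changes understate those of low genes. Calls required an adjusted p under 0.05, by Benjamini-Hochberg over all genes. The script was tested on simulated data. With 2 libraries per group, p-values rest on a spread shared across genes. For the prp4-1 pair, with 1 library each, a ratio of 1.5-fold was used and no test.

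The members and all lists were chosen with earlier results of these data known. Every member is counted. Values per library are given for the 3 largest and 3 smallest called changes in each wild-type comparison, members not called, the member of highest untreated signal in each role, and the 3 highest and 3 lowest ratios in the pair; genes named beyond these were chosen after their values were seen. Other scalings, pseudocounts, filters, a fit without the trend, a fit on the 4 libraries compared, and the omission of each library were tried.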

Additional observations from a re-analysis of the deposited data

How the results depend on the processing

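All 53 calls at 10 min and all 53 at 60 min held under every alternative run, and so did the direction of all 53 ratios in the prp4-1 pair. Of these runs, median-of-ratios scaling nearly repeated the main run and was no separate check. Its factors were within 0.534% of 1 in wild type and within 0.191% in the pair. Scaling to total signal took the median of all genes to 0.19 at 10 min, 0.66 at 60 min and 0.48 between the times. The member medians became -2.31, -2.12 and 0.46, and 31 members were higher at 60 than at 10 min. MPP10 (0.28), FCF1 (0.43), UTP11 (0.43), UTP20 (0.42) and UTP30 (0.46) then changed sign and were called higher, and ROK1, RRP5, NOP14 and ESF2 lost their call. Total signal was lower at 60 than at 10 min, so this scaling raised the later change of genes in general. Why the totals differed was not tested. A pseudocount of 5 gave a 60 min median of -2.67. With 1 library left out, members higher at 60 than at 10 min numbered 11 to 19, those lower 17 to 20, and the median ran from -0.04 to 0.10. Without the filter on low values 17 were higher. GCGATGAG, a form of PAC with 8 letters, was in 43.4% of member windows (3.93% of all) and GATGAGATGAG in 18.9% (1.25%). TGAAAAATTTT, the longer RRPE form, was in 41.5% (2.38%), AAAATTTT in 73.6% (9.03%), and each core read backwards in 3.8%. No paired analysis was possible because the columns carry no replicate number. Read depth is unknown, so the counting error of low signals such as those of DHR2 at 10 min cannot be given.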
